A study of Mus musculus with 8 samples.

Results

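The genes described are the 7 that carry ATG12 and LC3 through the paired conjugation reactions of autophagy, Atg3, Atg5, Atg7, Atg10, Atg12, Atg16l1 and Atg16l2. They were chosen by symbol from 21080 genes, and all 7 were among the 16284 whose coverage averaged 0.5 or more over the samples. The RNA came from BMDMs (bone marrow-derived macrophages, which are grown in culture from marrow cells) of C57BL/6 mice with LysM-Cre alone (WT) and of Nudt21 fl/fl LysM-Cre littermates (cKO). LysM drives Cre in myeloid cells, so both genotypes carry the Cre, and in cKO it removes exons of Nudt21 between loxP sites. Cells were taken without stimulation (0 h) or after IFNγ overnight and LPS for 4 h. Each of the 4 groups held 2 samples, numbered 1 and 2 for WT and 3 and 4 for cKO, and the BMDMs of 2 mice were pooled for each sample. The labels give the stimulation for all samples, and those at 0 h were taken as unstimulated from their titles. The same numbers recur at 0 h and 4 h, but which samples came from the same mice was not given. The main tests treated the 8 samples as independent.

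ATG7 is the E1-like enzyme that activates both ATG12 and the LC3 and GABARAP proteins. ATG10 is the E2-like enzyme that passes ATG12 to ATG5, and ATG3 is the E2-like enzyme that passes LC3 to phosphatidylethanolamine in the membrane. The ATG12-ATG5 conjugate joins ATG16L1 in a complex that acts as the E3 of LC3 lipidation and sets where it happens, and ATG16L2 is a paralogue of ATG16L1. In macrophages the same complex serves LC3-associated phagocytosis and the control of pathogens by interferon γ. NUDT21 is the CFIm25 subunit of cleavage factor Im, which binds UGUA in the pre-mRNA and directs the choice of polyadenylation site.

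Short stretches of the 3′UTRs are shown because UGUA is the motif that NUDT21 reads. In each line the 4 bases in capitals are the UGUA nearest the annotated 3′ end of the mRNA, written TGTA in DNA letters and 5′ to 3′ on the strand of the gene, in GENCODE M21 transcripts on GRCm38 (mm10), the build the reads were aligned to.
Atg7, chr6:114860535-114860564, plus strand: ctacaaatttctcTGTAcattctttacgca
Atg3, chr16:45188272-45188301, plus strand: gggaatctttgctTGTAttgtgtcagttca
Atg5, chr10:44363848-44363877, plus strand: ttacgttggtcacTGTAaacctgtcaaatc
Atg16l1, chr1:87792375-87792404, plus strand: aacagaacttgatTGTAaataaagaagaaa
In Atg16l1 the motif is followed directly by AATAAA, the canonical polyadenylation signal, with 37 bases left to the annotated end. In Atg7 it lies 61 bases before the end, in Atg3 250 bases and in Atg5 427 bases. Only the sense strand was searched, and overlapping matches counted. The 3′UTR of Atg12 held 22 copies in 4306 bases (5.11 per kb), that of Atg16l2 27 copies in 4526 bases (5.97 per kb) and that of Atg7 7 copies in 1589 bases (4.41 per kb). Atg10 held 7 copies in 906 bases (7.73 per kb), Atg5 4 in 1239 (3.23 per kb), Atg3 3 in 797 (3.76 per kb) and Atg16l1 3 in 1119 (2.68 per kb). Over 12583 tested genes with a 3′UTR of at least 100 bases the median was 5.16 per kb, and 90.1% held at least 1 copy. A copy stood in the last 100 bases of Atg7, Atg10 and Atg16l1, and in 54.9% of those genes. AATAAA or ATTAAA stood in the last 50 bases of Atg3, Atg5, Atg10 and Atg16l1, and in 79.8% of those genes. Neither stood there in Atg7, Atg12 or Atg16l2. These matches describe the sequence only.

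RT-qPCR primers for Atg7 and Atg12 are among those the study lists, and those for Atg7 are shown because they mark the part of the mRNA that such an assay reads. Both are given 5′ to 3′ with no base in capitals, and both match the Atg7 transcript exactly, in exons 7 and 8 of 20 and upstream of the 3′UTR.
Atg7 forward primer, chr6:114684482-114684503: cctgtgagcttggatcaaaggc
Atg7 reverse primer, chr6:114686159-114686180, opposite strand: gagcaaggagaccagaacagtg

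Judged by their size, the values are read coverage averaged over the bases of a gene, so levels of different genes can be compared roughly within a sample. Such an average also depends on which 3′UTR is used, and the paper reports shorter 3′UTRs for many genes in cKO. The annotated 3′UTR is 4306 of 4765 bases in Atg12 and 1239 of 2352 in Atg5. How far 3′UTR use entered the differences below was not tested. Coverage summed over all genes ran from 14950347 to 17954882 per sample, but the median tested gene fell from between 149 and 166 at 0 h to between 49.8 and 70.4 at 4 h. For comparisons each sample was centred on its median gene, and the result is called depth-scaled coverage below. The name does not mean a correction for sequencing depth, since the summed coverage differed little between the times while the median gene fell. Values at 4 h are therefore relative to a lower median gene. On the deposited scale the median gene shifted by -1.47 (log2) in WT and -1.20 in cKO between 0 h and 4 h, and by 0.09 at 0 h and 0.36 at 4 h between cKO and WT, so values on that scale are given beside several of the results. For Nudt21 the WT samples read 465 and 419 at 0 h and 1068 and 953 at 4 h, and the cKO samples 100.2 and 101 at 0 h and 197 and 164 at 4 h, so it was lower in each cKO sample. The 8 macrophage markers summed to between 77770 and 126400, the 5 neutrophil markers to between 1568 and 2524, the 5 fibroblast and endothelial markers to between 101 and 237, and the 6 lymphocyte markers to at most 4.14, with 1 of the 6 high enough to test. Of the macrophage markers 2 were called lower in cKO at 0 h (4.96% of all genes were called), and 4 lower and 1 higher at 4 h (15.9%), but on the deposited scale 1 higher and 1 lower at 0 h and 2 higher and 1 lower at 4 h. None of the neutrophil markers was called, and at 4 h, without overlap of the genotypes, Mpo stood at -0.73 and Elane at -0.51 but Ltf at 0.24 and Camp at 0.30, with a list median of 0.24. In the fibroblast and endothelial list the endothelial marker Pecam1 was called lower at both times (-1.24 and -1.38), while the collagen genes Col1a1, Col1a2 and Col3a1 stood at 0.97, 1.04 and 0.86 at 4 h without a call, with a list median of 0.86. The 4 dendritic cell markers differed in direction at 4 h. Xcr1 averaged 60.4 in WT and 4.85 in cKO and was the 1 of the 4 called, while Zbtb46 averaged 12.3 and 28.4, Flt3 2.06 and 2.90, and Siglech 9.72 and 6.27. On the deposited scale Xcr1 was called lower and Zbtb46 was called higher, at 1.53 (adjusted p = 0.0446, limma), against 22.9% of all genes called. The part of these marker changes in the results below was not tested. In bulk RNA, fewer cells of a type and less RNA per cell cannot be told apart, and p-values measure only the spread between these pooled samples.

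In cKO BMDMs Atg12 was higher at both times, Atg7 was higher at 4 h, and Atg5 and Atg10 were not called in either comparison. Atg3, Atg16l1 and Atg16l2 were also not called between genotypes. Genes were tested with limma on log2(coverage + 0.1) over all 8 samples and called at a Benjamini-Hochberg adjusted p under 0.05 over the 16284 genes. At 0 h 1 of the 7 genes was called higher and none lower, against 4.96% of all genes (2.79% higher), and at 4 h 2 were called higher and none lower, against 15.9% of all genes (7.20% higher). The median log2 fold change of the 7 was 0.26 at 0 h and 0.13 at 4 h, and over all tested genes it was -0.00 and -0.08. The lowest two-sided p that exact permutation can reach with 2 samples a group is 0.333. Of the 7 genes 5 were higher and 1 lower without overlap between genotypes at 0 h, against 59.7% of all genes without overlap, and 4 were higher and 2 lower at 4 h, against 64.0%. With no centring, 2 of the 7 were called at 0 h and 3 at 4 h, all higher, against 5.08% and 22.9% of all genes. With only the 4 samples of a contrast in the fit 0 of the 7 were called at either time, against 163 of 16284 genes at 0 h and 188 at 4 h, where the adjusted p was 0.094 and 0.112 for Atg12 and 0.13 for Atg7 at 4 h (limma), and with equal total coverage the adjusted p of Atg12 at 0 h was 0.0809.

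**Figure D1:**
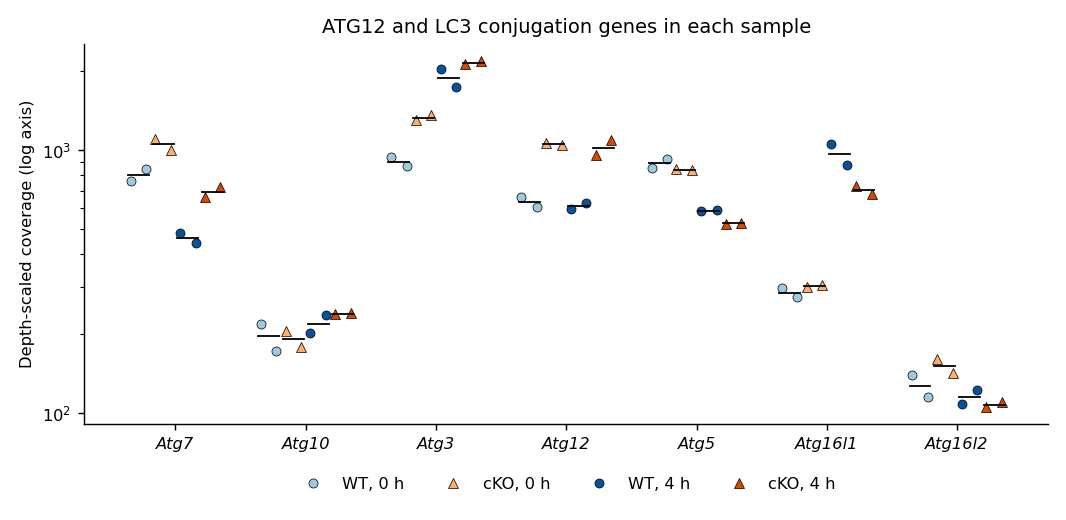
Depth-scaled coverage (log axis) of the 7 genes, which is relative to the median gene of each sample. A point stands for each of the 2 samples per group and a line at their mean. Both cKO samples lie above both WT samples for Atg12 at each time, and Atg16l1 in WT at 4 h lies above every other group of that gene.

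Atg7, on the plus strand of chromosome 6 from 114643097 to 114860614, encodes the E1-like enzyme that starts both reactions. Its depth-scaled coverage at 0 h was 763 and 847 for WT, and 1102 and 1001 for cKO. At 4 h the WT samples read 484 and 441 and the cKO samples 665 and 723. Both cKO samples were above both WT samples at each time. The difference was 0.38 on the log2 scale at 0 h (standard error 0.12, 95% interval 0.09 to 0.68, adjusted p = 0.142, limma) and 0.58 at 4 h (standard error 0.12, 95% interval 0.29 to 0.88, adjusted p = 0.0332, limma). On the deposited scale it was 0.48 (adjusted p = 0.0705, limma) and 0.94 (adjusted p = 0.00736, limma). The call at 4 h was lost in each of the 8 fits that left out a sample, with adjusted p from 0.0525 to 0.156 (limma), and with no filter on low coverage (adjusted p = 0.0543).

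The E2-like enzymes were not called between genotypes on the depth scale. Atg10 (minus strand of chromosome 13, 90935356 to 91223968) passes ATG12 to ATG5 and was among the lowest of the 7. The WT samples read 218 and 172 at 0 h, the cKO samples 205 and 178. At 4 h they read 200.5 and 236 in WT, and 236 and 239 in cKO. The groups overlapped at 0 h and nearly touched at 4 h. The 95% interval of the difference ran from -0.44 to 0.40 at 0 h and from -0.29 to 0.55 at 4 h on the log2 scale (adjusted p = 0.97 and 0.633, limma).

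Atg3 (plus strand of chromosome 16, 45158785 to 45188538) encodes the E2-like enzyme of LC3 and was the gene with the highest mean coverage of the 7 in every group. At 0 h the WT samples read 938 and 865 and the cKO samples 1294 and 1358. At 4 h the WT samples read 2025 and 1738 and the cKO samples 2119 and 2174. Both cKO samples exceeded both WT samples at each time, narrowly at 4 h. The log2 difference was 0.56 at 0 h (standard error 0.11, 95% interval 0.27 to 0.85, adjusted p = 0.0648, limma) and 0.19 at 4 h (95% interval -0.10 to 0.48, adjusted p = 0.301, limma). Without centring Atg3 was called at both times, with 0.65 at 0 h (adjusted p = 0.0406, limma) and 0.55 at 4 h (adjusted p = 0.0255, limma).

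Atg12, on the minus strand of chromosome 18, encodes the ubiquitin-like protein that is joined to ATG5. Unstimulated WT samples read 661 and 608 and cKO samples 1059.5 and 1045. After stimulation WT samples read 593 and 628 and cKO samples 952 and 1088. On this scale WT samples at 4 h lay close to those at 0 h, and every cKO sample was above every WT sample. The log2 difference was 0.73 at 0 h (standard error 0.11, 95% interval 0.45 to 1.01, adjusted p = 0.0334, limma) and 0.74 at 4 h (standard error 0.11, 95% interval 0.46 to 1.02, adjusted p = 0.0174, limma), or 1.66-fold and 1.67-fold. The deposited scale gave 0.82 (adjusted p = 0.0482) and 1.10 (adjusted p = 0.0116) with limma. The call at 0 h was lost without any of WT replicate 1 or 2 at 0 h, cKO replicate 3 or 4 at 0 h or cKO replicate 3 or 4 at 4 h (adjusted p up to 0.162, limma), and that at 4 h without WT replicate 1 at 4 h, cKO replicate 4 at 4 h or either cKO sample at 0 h (up to 0.091). Of the 50-base windows of Atg12, 0.51% also occur in transcripts of other genes, and 0.13% of those of Atg10.

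Atg5, on the plus strand of chromosome 10 from 44268358 to 44364291, encodes the acceptor of ATG12. Unstimulated WT samples read 852 and 924 and cKO samples 844 and 839.98. After stimulation WT samples read 583 and 592 and cKO samples 524 and 526. The cKO samples were below the WT samples at both times by small margins. The log2 difference was -0.08 at 0 h (95% interval -0.30 to 0.15, adjusted p = 0.689, limma) and -0.16 at 4 h (95% interval -0.38 to 0.06, adjusted p = 0.263, limma), and on the deposited scale it turned to 0.02 and 0.20. At both times this interval lay below that of Atg12, to which the ATG5 protein is joined.

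Atg16l1 (plus strand of chromosome 1, 87755870 to 87792428) encodes the subunit that brings the complex to membranes. Its values at 0 h were 297 and 275 for WT, and 301 and 306 for cKO. At 4 h they were 1053 and 877 for WT, and 726 and 679 for cKO. The cKO samples were slightly above WT at 0 h and below both WT samples at 4 h. The log2 difference was 0.09 at 0 h (95% interval -0.23 to 0.40, adjusted p = 0.759, limma) and -0.45 at 4 h (standard error 0.12, 95% interval -0.77 to -0.14, adjusted p = 0.0681, limma), with -0.09 at 4 h on the deposited scale (adjusted p = 0.601). Atg16l1 was called lower at 4 h with a variance that depends on intensity (adjusted p = 0.021, limma) and without WT replicate 2 at 4 h (adjusted p = 0.0452, limma).

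Atg16l2, on the minus strand of chromosome 7 from 101263034 to 101302251, was the lowest of the 7. Its values at 0 h were 139 and 115 for WT, and 160.4 and 142 for cKO. At 4 h they were 108 and 122 for WT, and 105 and 109 for cKO. The groups separated at 0 h and overlapped at 4 h. The 95% interval of the log2 difference was -0.11 to 0.62 at 0 h (adjusted p = 0.38, limma) and -0.46 to 0.26 at 4 h (adjusted p = 0.673, limma), and at 4 h the estimate of -0.10 turned to 0.26 on the deposited scale. Exons of Atg16l2 share 25 bases with Fchsd2 on the opposite strand. The sources do not state whether counting used strand, so reads there cannot be assigned.

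**Figure D2:**
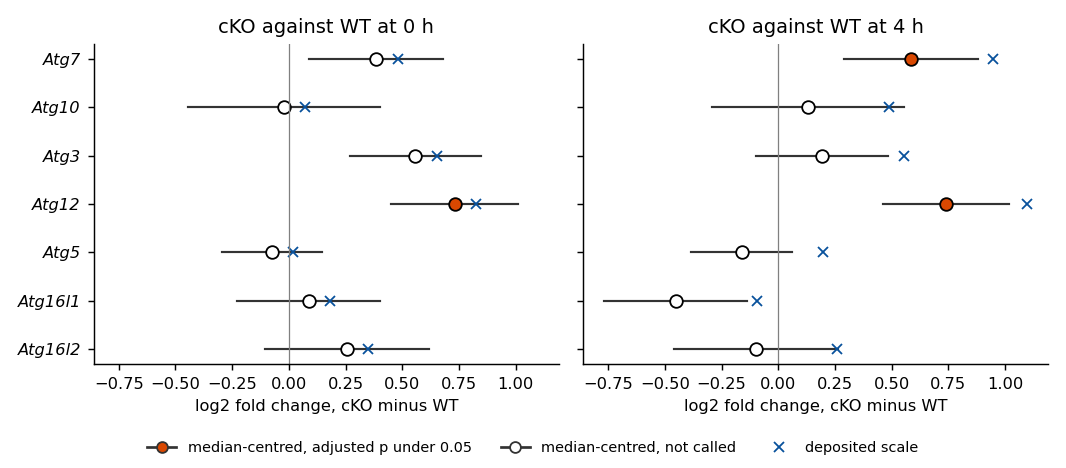
Genotype difference (log2, cKO minus WT) of the 7 genes at 0 h (left) and 4 h (right). Circles and bars give the median-centred estimate and its 95% interval, filled where the adjusted p was under 0.05, and crosses give the deposited scale; Atg12 stands at 0.73 and 0.74, and Atg16l1 at 0.09 and -0.45.

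An interaction term tested whether the genotype effect itself changed from 0 h to 4 h. None of the 7 genes passed (0 of 7, against 2.12% of all genes, limma), and 1, Atg16l1, had an unadjusted p under 0.05, against 21.6% of all genes. No other tool was run. The genotype effect on Atg16l1 was lower at 4 h than at 0 h by -0.54 (95% interval -0.99 to -0.09, adjusted p = 0.173, limma). For Atg3 the difference was -0.36 (95% interval -0.77 to 0.05), for Atg7 0.20 (95% interval -0.22 to 0.62) and for Atg12 0.01 (95% interval -0.39 to 0.40).

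Ratios of coverage within a sample do not depend on the scaling, but they can shift with the 3′UTR in use, which was not analysed here. They describe the balance of coverage between the partners. Atg12 stood below its acceptor Atg5 in unstimulated WT, at a ratio of 0.776 and 0.658, and above it in unstimulated cKO, at 1.26 and 1.24. At 4 h the ratio was 1.02 and 1.06 in WT and 1.82 and 2.07 in cKO. The 2 genotypes did not overlap at either time, and cKO at 0 h exceeded WT at 4 h. Atg7 to Atg5 was 0.896 to 0.917 in WT and 1.19 to 1.31 in cKO at 0 h, and 0.744 to 0.831 in WT and 1.27 to 1.37 in cKO at 4 h. In each cKO sample Atg7 was therefore above Atg5, and in each WT sample below it. Atg16l1 to Atg5 was 0.297 to 0.349 in WT and 0.356 to 0.365 in cKO at 0 h, and 1.48 to 1.81 in WT and 1.29 to 1.39 in cKO at 4 h. Atg16l1 thus stood below Atg5 at 0 h and above it at 4 h in every sample. Over its paralogue, Atg16l1 was 2.27 ± 0.18 (SD, n = 2) times Atg16l2 in WT and 2.02 ± 0.21 (SD, n = 2) in cKO at 0 h, and 8.47 ± 1.81 and 6.56 ± 0.50 (SD, n = 2 each) at 4 h. The ratio of the E2-like genes, Atg3 to Atg10, was 4.67 ± 0.52 (SD, n = 2) in WT and 6.99 ± 0.94 in cKO at 0 h, and 8.73 ± 1.93 and 9.02 ± 0.08 at 4 h, where the WT samples lay on both sides of the cKO samples. With 2 samples a group these ratios were not tested.

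**Figure D3:**
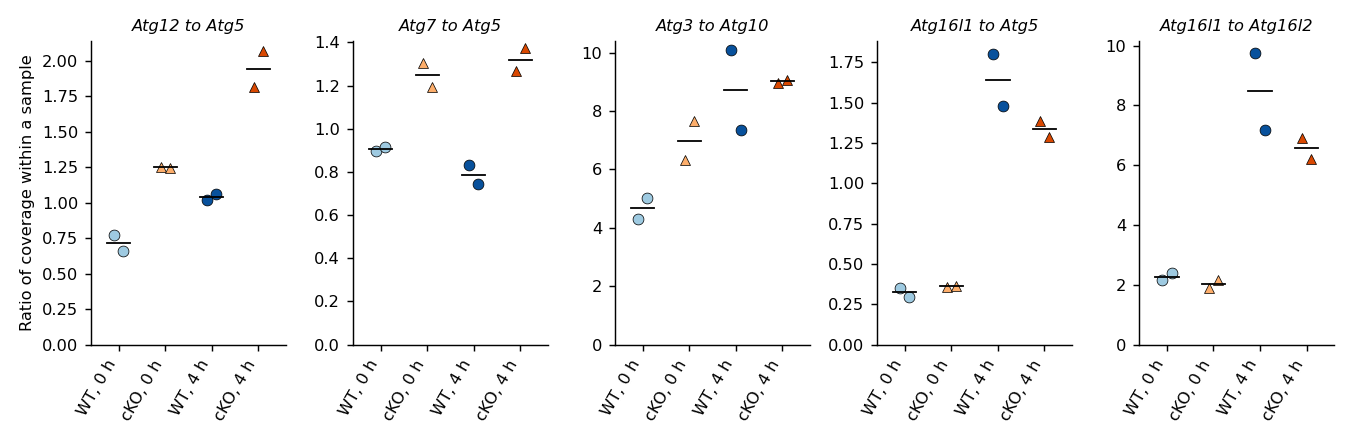
Ratio of the coverage of paired genes in the same sample (linear axes from 0), with a point per sample and a line at the mean of 2. Atg12 to Atg5 runs from 0.658 in WT at 0 h to 2.07 in cKO at 4 h, and Atg16l1 to Atg5 is under 0.4 at 0 h and over 1.2 at 4 h.

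By coverage the order of the genes in WT at 0 h was Atg3, Atg5, Atg7, Atg12, Atg16l1, Atg10 and Atg16l2, with means from 1385 down to 195. Atg3 and Atg5 did not separate, since each was the higher in 1 sample. In cKO at 0 h Atg12 and Atg7 (means 1727 and 1723) stood above Atg5 (1383) and did not separate from each other. In WT at 4 h Atg16l1 had moved to the second place (534), after Atg3 (1043), and the ranges of Atg12 and Atg5 (341 and 328) overlapped, although Atg12 was the higher in both samples. In cKO at 4 h the order was Atg3 (1531), Atg12 (727), Atg16l1 (502), Atg7 (495), Atg5 (375), Atg10 (170) and Atg16l2 (76.4), where Atg16l1 and Atg7 overlapped. The ranges of the other neighbours did not overlap.

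Stimulation was compared within each genotype, and these comparisons share samples with those above. Relative to the median gene, Atg16l1 and Atg3 rose and Atg7 and Atg5 fell in WT, 4 of 7 called against 60.2% of all genes, and in cKO Atg16l2 fell as well, 5 of 7 called against 58.6%. Without centring 6 of the 7 were called lower and none higher in each genotype, against 71.1% of all genes called in WT and 69.0% in cKO. The groups did not overlap for 4 of the 7 in WT and 6 in cKO, against 80.1% and 84.2% of all genes. Atg16l1 rose by 1.75 in WT (standard error 0.12, adjusted p = 0.000223, limma) and by 1.21 in cKO (standard error 0.12, adjusted p = 0.000854, limma) on the log2 scale. In WT it was 0.28 on the deposited scale (adjusted p = 0.0675, limma), 0.33 with equal total coverage and 1.07 with quantile normalization. In cKO it was 0.68 with quantile normalization, but 0.01 on the deposited scale and -0.03 with equal total coverage. Atg3 rose by 1.06 and 0.69 after median-centring but turned to -0.41 and -0.51 on the deposited scale, -0.12 and -0.49 with quantile normalization, and -0.36 and -0.55 with equal total coverage. The direction for Atg3 therefore depended on the scale.

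Atg7 fell by 0.80 in WT and by 0.60 in cKO (standard error 0.12, adjusted p = 0.00271 and 0.00825, limma), and Atg5 fell by 0.59 and by 0.68 (standard error 0.09, adjusted p = 0.00273 and 0.00184, limma). Both fell under each of the 4 scalings in both genotypes, with values down to -2.27 for Atg7 and -2.06 for Atg5 in WT on the deposited scale. Atg12 was -0.06 and -0.05 after median-centring (adjusted p = 0.687 and 0.727, limma), and was called lower under the other 3 scalings, from -0.85 to -1.52 in WT and from -1.02 to -1.29 in cKO. Atg16l2 was -0.14 in WT and fell by 0.49 in cKO (adjusted p = 0.0322, limma), a call lost with the replicate number as a block (adjusted p = 0.104). Atg10 was 0.17 and 0.32 (adjusted p = 0.424 and 0.154, limma), and was called lower, at -1.30 and -0.88, on the deposited scale. Among all genes 62.0% of the calls in WT were higher at 4 h after median-centring and 18.1% on the deposited scale, and in cKO 60.6% and 21.1%. Between genotypes 56.2% of the calls at 0 h were higher in cKO, and 67.4% on the deposited scale, and at 4 h 45.2% and 85.3%.

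**Figure D4:**
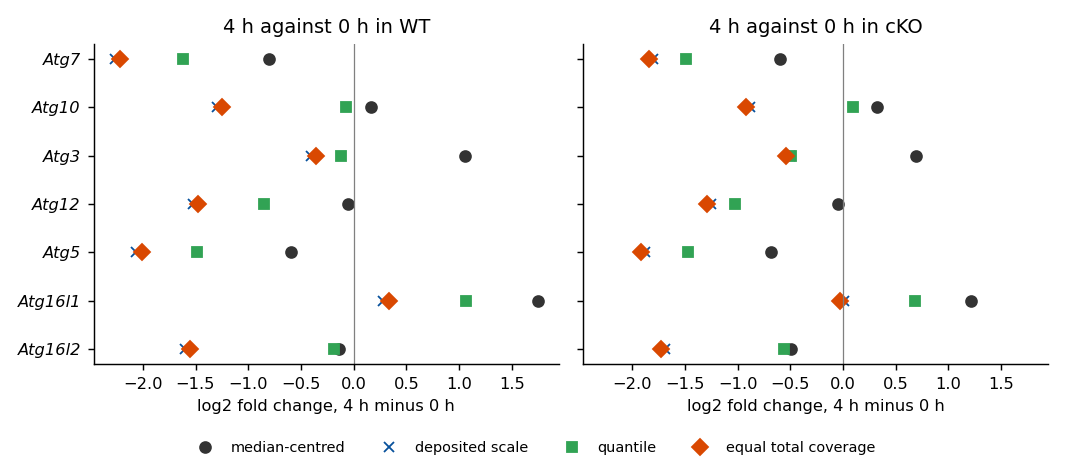
Log2 fold change of 4 h against 0 h for the 7 genes in WT (left) and cKO (right) under 4 scalings of the samples. Atg7 and Atg5 are below 0 under every scaling, while Atg3 is at 1.06 in WT after median-centring and between -0.41 and -0.12 otherwise.

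The substrates, proteases and partners around the conjugation genes were described from gene lists, by their counts and medians. At 0 h none of the genes in these lists was called between genotypes with limma. The counts at an unadjusted p under 0.05 were 0 of 5 LC3 and GABARAP genes, 0 of 4 ATG4 proteases, 1 of 1 ATG5 partner, 5 of 21 initiation and membrane genes and 4 of 15 UFM1, NEDD8 and SUMO genes, against 21.9% of all genes. At 4 h Map1lc3b, the LC3 most used as a marker of autophagosomes, was higher in cKO by 0.87 (standard error 0.11, adjusted p = 0.0124, limma). The WT samples read 942 and 830.01 and the cKO samples 1568 and 1666. The other 4 LC3 and GABARAP genes were not called, with 0.17 for Map1lc3a, 0.13 for Gabarap, 0.21 for Gabarapl1 and -0.08 for Gabarapl2, and the list median was 0.17. Without centring 2 of the 5 were called higher, against 22.9% of all genes called on that scale, where Gabarap stood at 0.49 (adjusted p = 0.0492, limma) and Gabarapl2 turned to 0.28.

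The ATG4 proteases prime LC3 and remove it from membranes. Of these, Atg4c was higher in cKO at 4 h by 1.48 (standard error 0.24, adjusted p = 0.0211, limma), with 70.4 and 62.1 for WT, and 149 and 230.1 for cKO. Its values at 0 h were higher in both genotypes, 320.4 and 390.1 for WT, and 464 and 441 for cKO. Atg4a (-0.20), Atg4b (0.07) and Atg4d (0.18) were not called, but on the deposited scale Atg4d was called higher at 0.54 (adjusted p = 0.0325, limma) and Atg4a turned to 0.16. Tecpr1, an alternative partner of the ATG12-ATG5 conjugate on lysosomes, was higher in cKO at 4 h by 0.70 (standard error 0.12, adjusted p = 0.0254, limma), with 109.9 and 124 for WT, and 175 and 204 for cKO. Like Atg4c it was several times higher before stimulation, between 805 and 1126. The call of Map1lc3b was lost without cKO replicate 3 or 4 at 4 h (adjusted p up to 0.0749), that of Atg4c without either WT sample at 4 h, either cKO sample at 0 h or cKO replicate 4 at 4 h (up to 0.0644), and that of Tecpr1 without any cKO sample or without WT replicate 1 at 4 h (up to 0.12, limma). None of these 3 genes was called with only the 4 samples of the contrast (adjusted p from 0.0979 to 0.132, limma).

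Among the 21 genes of initiation and membrane supply 5 were called higher and none lower in cKO at 4 h, against 15.9% of all genes called and 7.20% called higher, with a list median of 0.12 beside -0.08 over all genes. The largest were Ulk2, a kinase that starts autophagy, at 1.25 (standard error 0.11, adjusted p = 0.00605, limma) and Atg13, its partner, at 0.87 (standard error 0.11, adjusted p = 0.0128, limma). With the deposited values 12 of the 21 were called higher, against 22.9% of all genes called, and with only the 4 samples of the contrast 0 of the 21 were called, against 188 of all 16284 genes. Without 1 sample 1 to 6 of the 21 were called, 1 without cKO replicate 4 at 4 h and 3 without either cKO sample at 0 h. Among the 15 genes of the UFM1, NEDD8 and SUMO conjugation systems, which use E1 and E2 enzymes of the same kind, none was called higher and 2 were called lower at 4 h, a share near the 15.9% of all genes called, and the list median of -0.08 was that of all genes. Among the 2 was Uba2, a subunit of the E1 for SUMO, at -0.62 (standard error 0.11, adjusted p = 0.025, limma). With the deposited values none of the 15 was called lower and 3 were called higher, a share near the 22.9% of all genes called there. Neither call remained without WT replicate 1 at 4 h or any of the cKO samples.

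**Figure D5:**
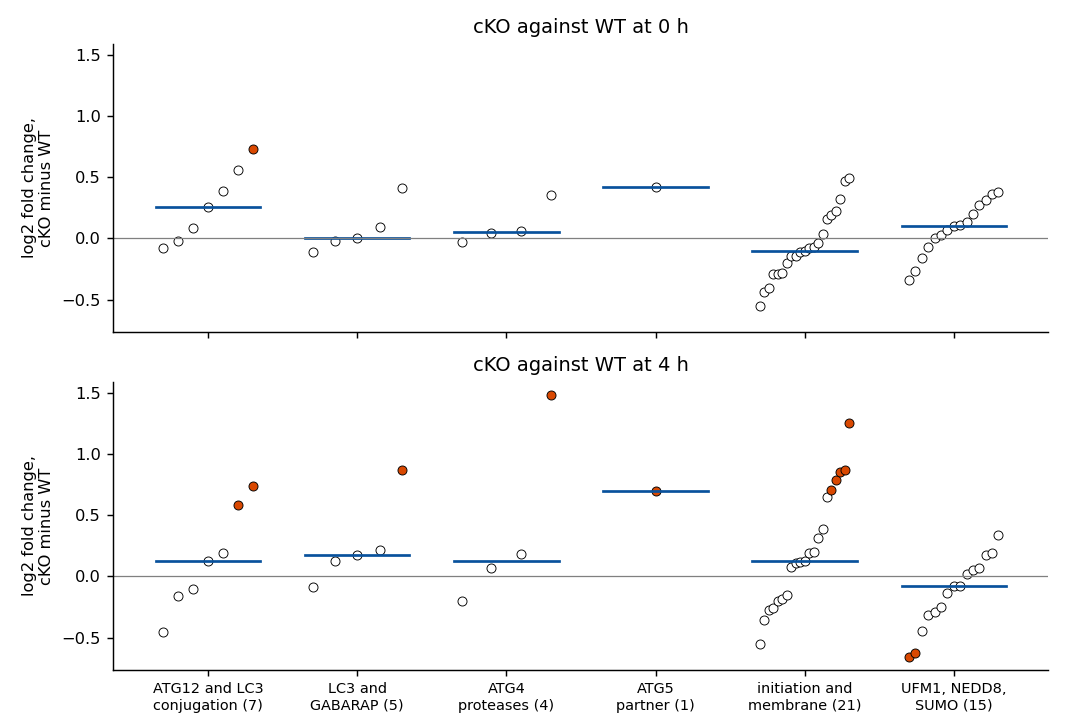
Genotype difference (log2, cKO minus WT) at 0 h (top) and 4 h (bottom) for each gene of the 6 lists, with the number of genes in brackets, filled where the adjusted p was under 0.05 and a line at the list median. At 4 h filled points lie above 0 in 5 lists and below 0 in the UFM1, NEDD8 and SUMO list, whose median is -0.08.

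Across the 8 samples the 7 genes did not move as a block after median-centring. Without centring 6 of the 7 were called lower and none higher after stimulation in each genotype. Of all genes 71.1% were called in WT and 69.0% in cKO on that scale. Pearson correlations of the depth-scaled log2 coverage of the 7 are given as a description, since the points share libraries and depth. They ran from -0.94 between Atg3 and Atg5 to 0.87 between Atg3 and Atg16l1, and Atg12 was near 0 with its acceptor Atg5 (-0.12) and at 0.60 with Atg7. The genes named next were picked as the highest of many correlations over 8 samples in 4 groups. High values come in part from that choice, and shared regulation was not tested. Among the 12973 genes averaging a coverage of 5 or more, the profile most like that of Atg12 was Cnot8 (0.991), followed by Cdc7 (0.989) and Osbpl8 (0.984). For Atg7 these were Klhl12, Atf7ip and Per2 (from 0.997 to 0.991), for Atg5 Nfatc3, Vps39 and Vsir (at least 0.998), and for Atg16l1 U2af2, Mettl6 and Sh3bp2 (at least 0.998). For Atg3 they were Tiprl, Tmem128 and Agpat5 (from 0.997 to 0.994), for Atg10 Mrps36, Rbmx and Rnf146 (from 0.939 to 0.937), and for Atg16l2 Lhpp, Fam92a and Tsen15 (from 0.951 to 0.945).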

How the data were processed

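RNA-seq of 8 samples of BMDMs was used. Per the submitters' processing notes, reads were aligned with HISAT2 2.2.1 and quantified with StringTie 2.1.7, and the study's methods give RefSeq genes on mm10. The authors deposited 1 table per time with a signal per gene symbol and sample, which by its values is mean read coverage per base, not scaled between samples. Read numbers per gene are not known, so counting error could not be given. The fold changes and p-values in the tables, which are the authors' own comparison, were not used.

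Coverage was analysed with limma 3.58.1 in R 4.3.3 as log2(coverage + 0.1), centred on the median gene of each sample, with a mean per group over 8 samples. Genes averaging a coverage of 0.5 or more were tested, and the pseudocount understates changes of low genes. The members and gene lists were chosen with earlier results of these data known. The named genes were the 7 members, Nudt21, the LC3, GABARAP, ATG4 and Tecpr1 genes, the 2 largest called rises and falls of the other lists, and the 3 genes most correlated with each member.. The fit was also run on simulated data. Their noise was drawn from the spread that the fit itself estimated, and the added changes were larger than those of Atg7 and Atg12. This run therefore cannot show whether the calls of these genes hold. No sample pair held identical values (0 pairs). Alternatives covered pseudocount, filter, scaling, variance trend, samples in the fit, call rule and replicate block. Positions and transcripts came from GENCODE M21, which held 16076 of the 16284 tested symbols, and primers from the study's supplement. The single values of 1 called gene of these lists are not reported here. Protein sequences and polyadenylation site usage were not analysed here.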

Additional observations from a re-analysis of the deposited data

Results flagged for a closer look

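In 6 of the 53 tested genes of the autophagy and conjugation lists, on the depth scale, the cKO samples lay on one side of both WT samples at 0 h and on the opposite side at 4 h, and the change of the genotype effect from 0 h to 4 h was tested as an interaction (limma, Benjamini-Hochberg adjusted p over 16284 genes). The same pattern was present in 1992 of all 16284 genes (12.2%), a share near the 11.3% of the lists. None of the 6 interactions passed the threshold on that scale. For Atg16l1 the effect changed by -0.54 on the log2 scale (adjusted p = 0.173). For Becn1, a subunit of the phosphatidylinositol 3-kinase complex of autophagy, it changed by -0.41 (adjusted p = 0.189), and for Atg2a, a lipid transfer protein, by 0.99 (adjusted p = 0.0627), which on the deposited scale was 1.25 and passed (adjusted p = 0.0279). In the related conjugation systems Uba3 and Nae1, the subunits of the NEDD8 E1, changed by -0.52 each (adjusted p = 0.11 and 0.187), and Sumo3 by 0.60 (adjusted p = 0.129). On the deposited scale the genotype effects of Becn1 (0.32 at 0 h and 0.17 at 4 h), Uba3 (0.37 and 0.11) and Nae1 (0.30 and 0.048) no longer had opposite signs, and that of Sumo3 at 4 h was called higher at 0.70 (adjusted p = 0.0139, limma).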

How the results depend on the processing

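The 7 genes called at 0 h between genotypes numbered 1, and 2 on the deposited scale and with quantile normalization, 3 with an intensity trend, and 0 with equal total coverage or only the 4 samples of the contrast. At 4 h they numbered 2, and 3 on the deposited scale (Atg3 added) and with the trend (Atg16l1 added, lower), 1 with no filter or with the rule of a 1.5-fold change and unadjusted p under 0.05, and 0 with only those 4 samples. In WT 7 were called for stimulation with equal total coverage, against 4, where calls over all genes were 11429 against 9811. Over all genes, calls at 0 h were 808, and 1475 with quantile normalization, 1706 with the trend, 2052 with the fold rule and 163 with 4 samples. At 4 h they were 2591, and 3909 with the trend and 188 with 4 samples. Interaction calls were 346, and 530 at a pseudocount of 0.01, 1157 with the trend and 2657 with the fold rule. The deposited scale with only the 4 samples, chosen after seeing the data, gave 106 and 1496 calls and 0 of the 7 at 0 h. Leaving out a sample gave 273 to 831 calls at 0 h (0 to 1 of the 7), 495 to 2336 at 4 h (0 to 2), 182 to 468 for the interaction and 3 to 5 of the 7 for stimulation in cKO, 3 without cKO replicate 3 at 0 h. The lowest counts were without cKO replicate 4 at 0 h for 0 h, and without cKO replicate 4 at 4 h for 4 h and the interaction. The causes were not tested.

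Same-numbered samples did not deviate together (correlation 0.02 in WT and 0.024 in cKO), so the numbers were not taken as pairs. With the replicate number as a block, 8988 genes were called for stimulation in WT and 8510 in cKO, against 9811 and 9549, and 0 for the interaction.

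Directions that turned were these. On the deposited scale, also with 4 samples, genotype values at 0 h became 0.073 for Atg10, 0.065 for Atg4a, 0.019 for Atg5 and 0.075 for Map1lc3b, and at 4 h 0.26 for Atg16l2, 0.16 for Atg4a, 0.20 for Atg5 and 0.28 for Gabarapl2; stimulation became -1.30 and -0.88 for Atg10 and -0.41 and -0.51 for Atg3 in WT and cKO, and the Atg5 interaction 0.18. With equal total coverage Atg10 became -1.25 and -0.92, Atg3 -0.36 and -0.55, Atg16l1 in cKO -0.030, Atg16l2 at 4 h 0.049, the Atg5 interaction 0.090 and Gabarapl2 -0.023 and 0.064 at the 2 times. With quantile normalization Atg10 in WT became -0.074, Atg3 -0.12 and -0.49, the interactions of Atg12 -0.17 and Atg5 0.013, and Gabarapl2 -0.030 and 0.015. Leaving out a sample gave, at 0 h, -0.19 to 0.15 for Atg10, -0.25 to 0.033 for Map1lc3a, -0.075 to 0.037 for Map1lc3b, -0.14 to 0.15 for Gabarapl2, -0.15 to 0.092 for Atg4a, -0.076 to 0.165 for Atg4b and -0.014 to 0.13 for Atg4d. At 4 h it gave -0.21 to 0.55 for Map1lc3a, -0.069 to 0.33 for Gabarap, -0.22 to 0.056 for Gabarapl2 and -0.056 to 0.19 for Atg4b. For stimulation in WT it gave -0.0033 to 0.34 for Atg10, -0.11 to 0.0044 for Atg12 and -0.27 to 0.0012 for Atg16l2, in cKO -0.14 to 0.049 for Atg12, and for the interaction -0.020 to 0.32 for Atg10 and -0.088 to 0.10 for Atg12.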
